A study of Mus musculus with 12 samples.

Results

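Collagen genes are described here across 3 ages of mouse cortical development. The members are all genes whose symbol has the form of a collagen chain name (Col, the number of the collagen type, a, the number of the chain) and that were listed at every age. This rule used names and no measured value, and it took 44 genes of the 25834 listed at all 3 ages. RNA was made from nuclei of the cerebral cortex of male mice at P0 (day of birth), P14 and P28 (14 and 28 days later), with 4 libraries per age, which the labels number as biological replicates. Every group had the genotype CAG-Sun1/sfGFP +/-; NEX-Cre +/-, and the labels give no treatment. CAG-Sun1/sfGFP places a green fluorescent tag on the nuclear envelope of cells in which Cre has acted, and NEX-Cre drives Cre from the Neurod6 gene, which is active in young excitatory neurons of the cortex, so the tag marks the descendants of those cells and not a cell type as such. The series title names INTACT, a method that captures nuclei by such a tag. The library names of P0 and P14 contain WT and those of P28 do not, and the labels do not say that littermates were used. The series concerns the histone variant H2BE, but no group here differs in that gene by its label, so the comparison is of ages.

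Collagens are proteins of the extracellular matrix in which chains are wound around each other, and each chain has its own gene. Fibrillar collagens (types I, II, III, V, XI, XXIV and XXVII) form or seed fibrils, and type IV forms the sheet of the basement membrane, in brain mainly around blood vessels and under the pia. Type VI forms beaded filaments, FACIT collagens sit on the surface of fibrils, multiplexins belong to basement membranes, and transmembrane collagens are anchored in the cell surface and can be shed from it. In the brain, fibroblasts of the meninges and the cells of vessels are the best known sources of types I, III and IV, while several minor collagens are made by neurons, where some act at synapses and on axons.

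Levels are given as scaled CPM, counts per 1000000 reads of the shared genes after 1 joint scaling of all 12 libraries. Libraries of P0 held 13195973 to 16599217 reads, those of P14 25486861 to 33611769 and those of P28 21569262 to 31215435, and 3 reads correspond to 0.0858 to 0.236 scaled CPM. P14 replicate 2 stood apart from the other libraries of its age (correlation of log2 levels across genes 0.944 to 0.962 with them), and it had the highest level of its age for 26 of the 41 tested collagens and the lowest for 8. P0 replicate 1 had the lowest level of its age for 18 and the highest for 14. The labels call P0 replicate 1 and P28 replicate 4 merged, without saying what was merged. No counts of highest and lowest levels over all genes are given here, so those of the collagens are not read as their trait. Markers of excitatory neurons were found in all 12 libraries (11 genes, summed level 1583.0 to 2811.0 scaled CPM), and markers of other cell types were found too. The mean excitatory sum was 1999.9 at P0, 2195.6 at P14 and 2776.3 at P28, but most of its genes did not rise. From P0 to P28, 7 of the 11 fell and 2 rose, with a median log2 change of -0.58. The sums of 9 inhibitory neuron markers (406.7, 295.5 and 331.4) and 6 oligodendrocyte precursor markers (163.9, 170.3 and 135.0) changed less than those below. From P0 to P28 the mean summed level of 10 endothelial markers went from 845.4 to 45.0 scaled CPM, of 8 mural cell markers from 731.6 to 53.3 and of 9 leptomeningeal fibroblast markers from 345.3 to 34.6. That of 7 progenitor markers went from 381.4 to 32.8. The sums of 7 astrocyte markers (560.5 at P0, 1876.7 at P14, 1353.8 at P28), 7 oligodendrocyte markers (77.6, 1640.0 and 2003.1), 7 microglial markers (37.0, 79.8 and 79.0) and 7 choroid plexus markers (6.0, 109.2 and 121.9) were lowest at P0. The astrocyte list did not rise as a whole: from P0 to P28, 2 of its 7 genes rose and 2 fell. Its median log2 change over that span was -0.35. Of all 88 markers only Opalin, of oligodendrocytes, had no read in any library of an age, which was P0. In such bulk libraries, fewer nuclei of a type and less RNA per nucleus cannot be told apart.

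Collagen genes changed in both directions between P0 and P14 and mostly downward afterwards. Of the 41 collagens tested (at 1 scaled CPM or more in at least 4 libraries), 17 rose and 12 fell from P0 to P14 at an adjusted p of 0.05 (limma, adjusted over all 15734 genes tested). The background of this comparison was 68.9% of all genes changed, 34.4% higher and 34.5% lower, so the share of collagens that changed was near that of all genes. From P14 to P28, 1 collagen rose and 15 fell, against a background of 18.3% of genes changed, 9.22% higher and 9.09% lower. From P0 to P28, 11 rose and 17 fell, with 71.2% of all genes changed, 35.7% higher and 35.6% lower. The median log2 change of the 41 collagens was 0.18 from P0 to P14, -0.48 from P14 to P28 and -0.13 from P0 to P28, and that of all genes was 0.0117, -0.00631 and 0.00454. Without P14 replicate 2, 17 collagens rose and 16 fell from P0 to P14 (background 36.4% higher and 36.7% lower), and 5 rose and 16 fell from P14 to P28 (background 12.5% and 13.3%). The medians of the 41 collagens without that library were 0.05 and -0.25, nearer to those of all genes (0.00476 and 0.00299). The 3 collagens below the filter were Col4a3 (0.174 to 1.12 scaled CPM over all libraries), Col6a6 (0.0729 to 2.89) and Col10a1 (0.0786 to 0.852). Col8a2, Col13a1, Col17a1 and Col4a4 reached 1 scaled CPM in only 5 or 6 libraries each. For Col8a2, Col17a1 and Col4a4 these were mostly the libraries of the age at which each was highest, while those of Col13a1 were spread over all 3 ages.

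**Figure D1:**
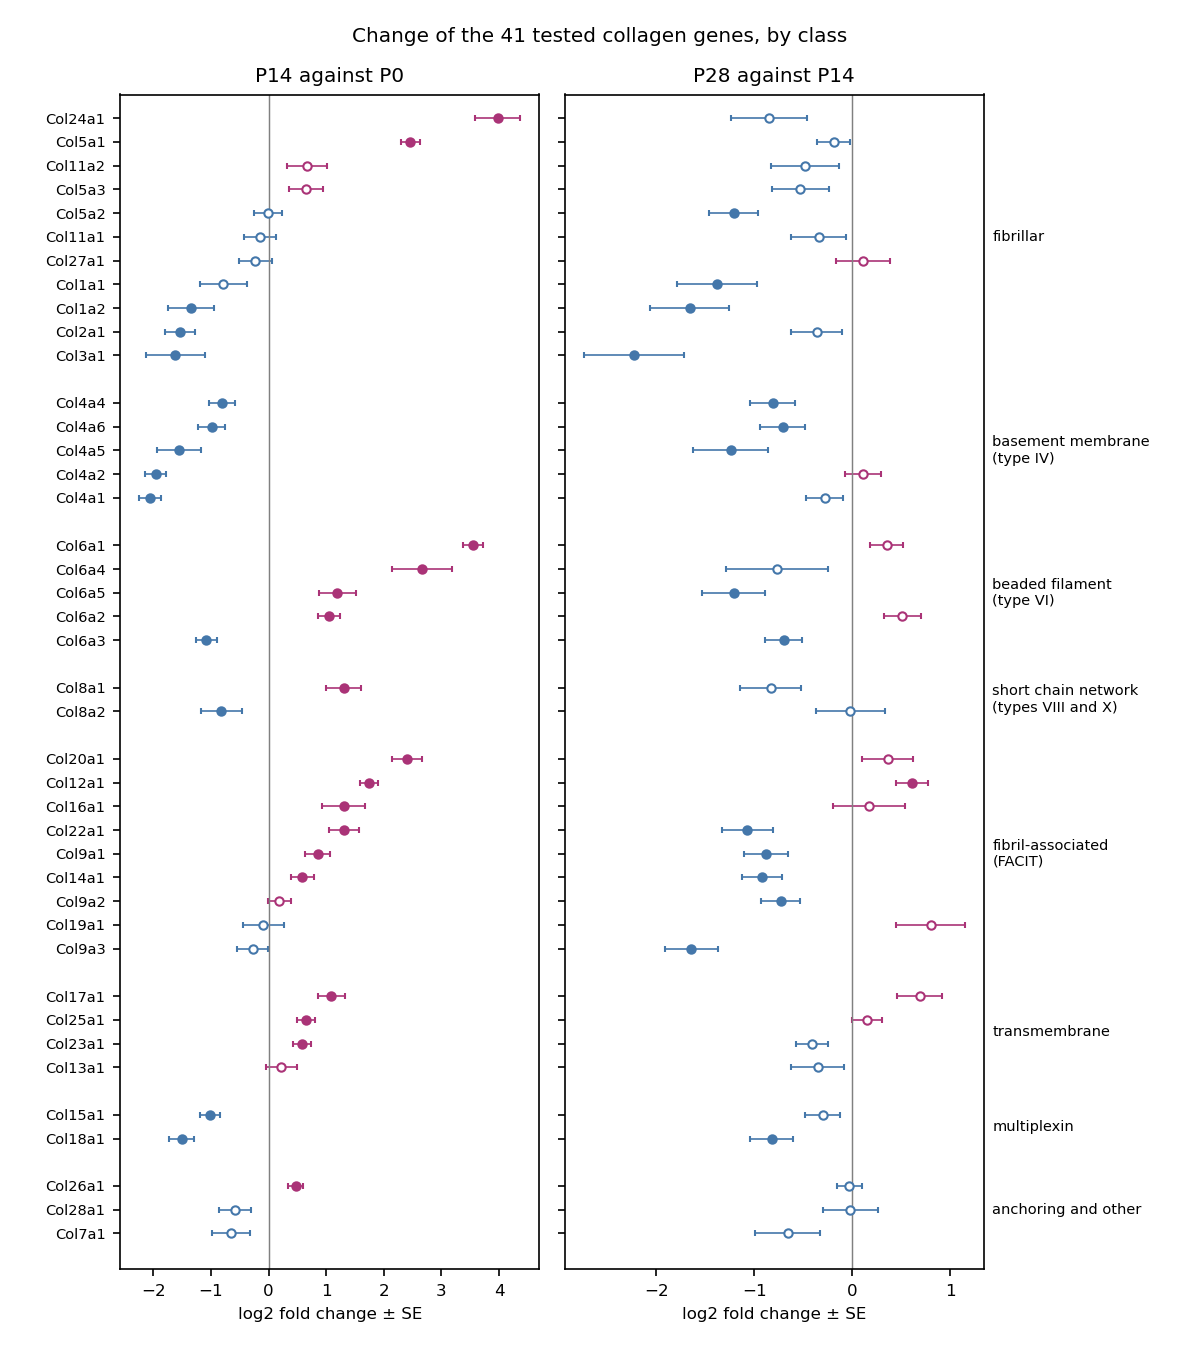
Log2 fold change with its standard error for the 41 tested collagens, grouped by class, from P0 to P14 (left) and from P14 to P28 (right). Filled points passed an adjusted p of 0.05 and open points did not, red is higher at the later age and blue is lower: on the left 17 filled points lie right and 12 left of 0, on the right 1 and 15.

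The summed level of all 44 collagens went from 1581.7 ± 383 scaled CPM at P0 through 1201.1 ± 242 at P14 to 1081.0 ± 77.5 at P28 (mean ± SD, n = 4 each), but its makeup differed between the ages. Reads of Col4a1 and Col4a2 made up 55.7 to 68.5% of all collagen reads in the P0 libraries, 16.1 to 23.7% at P14 and 19.3 to 21.5% at P28. Col6a1 alone went from 0.92 to 1.33% of collagen reads at P0 to 15.8 to 18.4% at P14 and 21.0 to 28.6% at P28. Without Col4a1 and Col4a2, the other collagens summed to 581.1 ± 64.2 scaled CPM on the day of birth, 965.1 ± 234 at P14 and 860.2 ± 70.9 at P28. The P14 mean rested on replicate 2 (1287.4 against 726.8 to 939.8): without it, it was 857.7 ± 115 (SD, n = 3), close to that of P28, and the sum of all 44 was 1090.2 ± 119. Levels of different genes are set side by side only per kb of exon. Whether reads in introns were counted is not stated, and where they were, a level per kb of exon of nuclear RNA also depends on the introns, so these orders are descriptions. Col4a1 (85.4 scaled CPM per kb) and Col4a2 (63.2) led at P0, ahead of Col9a3 (10.2) and Col18a1 (7.46). By their means, the order at P14 was Col6a1 (47.8), Col4a1 (19.5), Col5a1 (17.7) and Col4a2 (15.5), and at P28 it was Col6a1 (60.5), Col4a2 (16.8), Col4a1 (16.1) and Col5a1 (15.3). Col6a1 led in all 4 P14 libraries, but the order of the others differed between them: Col5a1 was ahead of Col4a1 in replicates 2 and 4, Col4a2 ahead of Col5a1 in replicate 3, and Col9a3 ahead of Col4a2 in replicate 2. At P28 Col4a2, Col4a1 and Col5a1 lay close together, and no order was tested.

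The promoters of the members with the largest changes between P0 and P28 are shown, since the rises and the falls can then be set against the sequence at their starts. They are the 150 bases before the RefSeq transcription start (assembly GRCm38.p6, the build the submitters' processing notes call mm10) of Col6a1 and Col24a1, which rose most, and of Col3a1 and Col1a2, which fell most. Each is written 5′ to 3′ on the gene's strand, and capitals mark a match to 1 of 3 searched motifs on either strand. They are the CCAAT box (CCAAT or ATTGG), the GC box (GGGCGG or CCGCCC) and the core of the TATA box (TATAA or TTATA), and the forward and reverse letters of the last can overlap each other. In Col3a1 the capitals are TATAA and TTATA, which overlap and begin at -117 and -118 from the transcription start. In Col1a2 they are CCAAT, at -109.
Col6a1, chr10:76726045-76726194, minus strand: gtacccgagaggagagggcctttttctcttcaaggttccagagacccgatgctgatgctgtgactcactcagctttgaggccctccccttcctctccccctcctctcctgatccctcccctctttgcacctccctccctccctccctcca
Col24a1, chr3:145292322-145292471, plus strand: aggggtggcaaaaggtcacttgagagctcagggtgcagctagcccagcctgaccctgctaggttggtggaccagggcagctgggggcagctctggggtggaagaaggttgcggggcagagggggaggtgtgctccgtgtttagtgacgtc
Col3a1, chr1:45311388-45311537, plus strand: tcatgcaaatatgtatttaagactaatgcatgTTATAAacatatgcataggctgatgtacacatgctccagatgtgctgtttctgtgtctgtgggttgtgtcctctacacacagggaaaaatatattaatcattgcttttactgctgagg
Col1a2, chr6:4505468-4505617, plus strand: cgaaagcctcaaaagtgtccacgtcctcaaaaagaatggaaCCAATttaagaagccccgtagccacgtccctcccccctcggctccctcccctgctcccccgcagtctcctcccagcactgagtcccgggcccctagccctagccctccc
Neither rising gene had any of the 3 motifs in this window, but this did not hold for all collagens. Col5a1 and Col25a1, which also rose from P0 to P28, had a GC box, and Col6a3 and Col15a1, which fell, had no motif. RefSeq promoter entries were found for 35 of the 44 collagens. The CCAAT box was in 7 of these 35 windows and in 25.3% of all 27025 promoters of the same length, the GC box in 19 of 35 and in 29.0% of all, and the TATAA core in 4 of 35 and in 14.7% of all. A match describes letters only and is not evidence of a bound site.

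The tested chains of type IV collagen, the network of the basement membrane, fell from P0 to P14, with a median log2 change of -1.55. Col4a3, which was below the filter and not tested, did not share this fall. It was at 0.301 to 0.55 scaled CPM at P0 (5 to 7 reads) and at 0.57 to 1.12 at P14 (15 to 39 reads). All 5 tested chains passed the test downward and none upward, beside 34.5% of all genes lower and 34.4% higher. Among the 5 was Col4a4, which passed the filter only through libraries of P0 and P14, so its fall is not independent of the filter. Col4a1 and Col4a2, which pair as the chains of the ubiquitous type IV molecule, carried nearly all of the class's level. Col4a1 was at 359.5, 738.4, 752.7 and 478.9 scaled CPM in P0 replicates 1 to 4, at 143.9, 139.4, 125.2 and 124.1 at P14 and at 102.6, 106.8, 118.0 and 111.5 at P28. Every P0 library lay above every later one, and P0 replicate 1 was the lowest of its age. Col4a1 fell by 2.06 ± 0.19 (SE) on the log2 scale to P14 (4.17-fold lower, adjusted p = 5.46e-07). Col4a2 was at 266.4, 500.2, 551.0 and 355.2 scaled CPM at P0, at 106.5, 106.9, 100.5 and 97.5 at P14 and at 120.7, 104.0, 110.3 and 109.2 at P28, and it fell by 1.96 ± 0.18 (adjusted p = 4.30e-07). The same order of the P0 libraries was seen in both chains. Neither passed the test from P14 to P28: the change of Col4a1 was -0.28 (95% interval -0.69 to 0.14) and that of Col4a2 was 0.11 (-0.27 to 0.49). Both genes lie head to head on chromosome 8, Col4a1 on the minus strand and Col4a2 on the plus strand, and their annotated ends share 85 bases (11312805 to 11312889, GRCm38.p6). The labels and notes do not say whether strand was used in counting, so reads in the shared stretch cannot be assigned to 1 of them.

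The minor type IV chains form networks of other tissues such as kidney and smooth muscle. Col4a5 was at 6.99, 17.0, 11.7 and 10.5 scaled CPM at P0, at 5.10, 1.34, 4.66 and 3.99 at P14 and at 2.04, 0.488, 1.31 and 1.18 at P28. Col4a6 was at 2.77, 4.59, 3.62 and 3.07 at P0, at 1.86, 1.55, 1.63 and 1.01 at P14 and at 1.33, 0.454, 0.634 and 0.606 at P28. These neighbours on the X chromosome, whose annotated genes are 1274 bases apart on opposite strands, both had all P0 libraries above all later ones. Their log2 changes to P14 were -1.55 ± 0.38 (adjusted p = 0.00235) and -0.99 ± 0.23 (adjusted p = 0.00153). Col4a4 went from 2.41 ± 0.411 scaled CPM at P0 through 1.20 ± 0.508 at P14 to 0.458 ± 0.212 at P28 (mean ± SD, n = 4). Col4a4, Col4a5 and Col4a6 fell by 0.81, 1.24 and 0.71 on the log2 scale from P14 to P28 (adjusted p = 0.0277, 0.0363 and 0.0460). Each of these 3 calls was near the threshold, and leaving out any of several libraries lost it, also where the change itself was as large or larger. That of Col4a4 was lost without P14 replicate 1 (-0.63), P28 replicate 1 (-0.63) or P28 replicate 2 (-0.86). That of Col4a5 was lost without P14 replicate 1, 3 or 4 (-1.07, -1.11 and -1.18) or P28 replicate 2, 3 or 4 (-0.99, -1.28 and -1.25). That of Col4a6 was lost without P0 replicate 3 or 4 (-0.71 each), P14 replicate 1 or 3 (-0.62 and -0.67) or P28 replicate 2, 3 or 4 (-0.59, -0.67 and -0.66). Col4a4 shares 114 annotated bases with Col4a3, which was below the filter.

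Beside the fall of type IV, the endothelial marker sum was 621.6, 1006.1, 1052.4 and 701.4 scaled CPM in P0 replicates 1 to 4, and the mural sum was 499.6, 921.2, 905.2 and 600.5. At P14 these sums were 46.6 to 125.6 and 60.1 to 157.9, and at P28 25.1 to 71.7 and 36.2 to 72.0. The summed level of Col4a1 and Col4a2 was 625.9 to 1303.7 in the P0 libraries, 221.5 to 250.3 in those of P14 and 210.8 to 228.3 in those of P28. In P14 replicate 2 the endothelial and mural sums were the lowest of that age, at 46.6 and 60.1, while Col4a1 and Col4a2 together were at 246.3, within the range of the other 3 (221.5 to 250.3). Of the 10 endothelial markers 9 fell and 0 rose from P0 to P14, of 8 mural markers 7 fell and 1 rose, and the part of these cell types in the collagen levels was not tested.

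**Figure D2:**
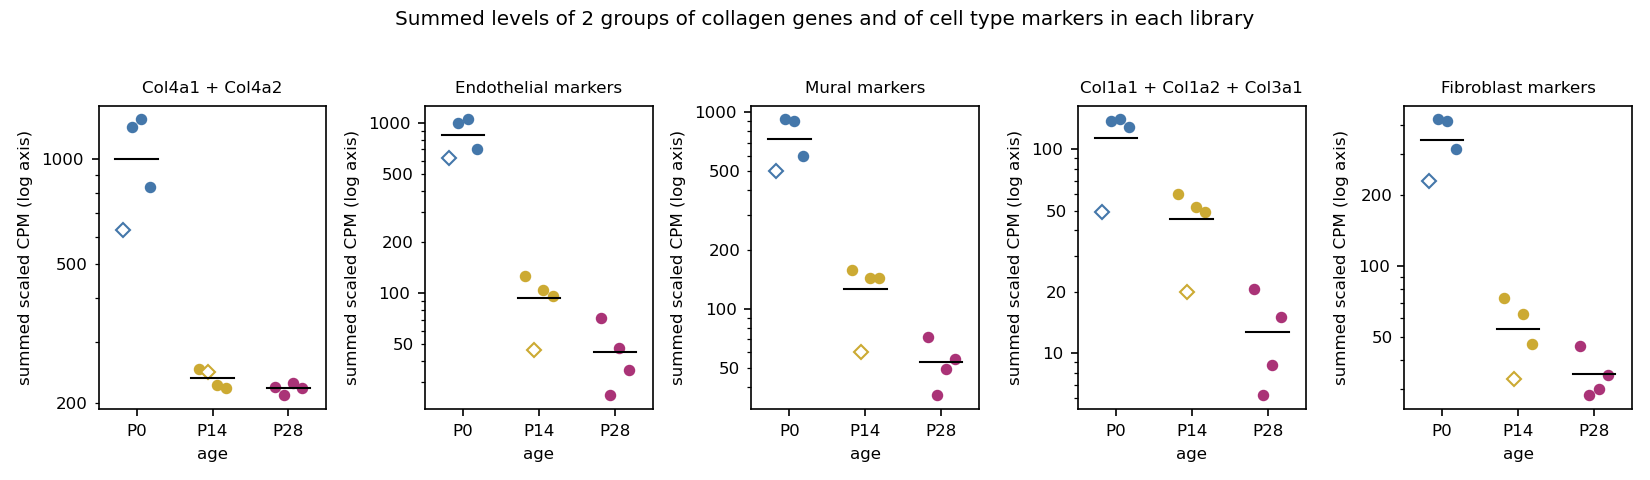
Summed scaled CPM (log axes) of Col4a1 and Col4a2, of Col1a1, Col1a2 and Col3a1, and of the endothelial, mural and leptomeningeal fibroblast marker lists, against age. Points are single libraries, lines are means of 4, and open diamonds are P0 replicate 1 and P14 replicate 2; the Col4a1 and Col4a2 sum is 221.5 to 250.3 at P14 against 210.8 to 228.3 at P28, while the marker sums differ more between the libraries of these ages.

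The multiplexins, which sit in vascular and epithelial basement membranes and release fragments such as endostatin, also fell. From P0 to P14, 2 of 2 tested genes were lower, beside 34.5% of all genes. Col18a1 was at 32.4, 66.1, 70.5 and 40.7 scaled CPM at P0, at 18.4, 15.2, 15.1 and 20.3 at P14 and at 11.8, 8.41, 8.19 and 9.73 at P28. Its 3 ages did not overlap, and it fell by 1.51 ± 0.22 on the log2 scale to P14 (adjusted p = 4.55e-05) and by 0.82 ± 0.22 from P14 to P28 (adjusted p = 0.0232). The second call was lost without P14 replicate 4 (-0.74) or P28 replicate 2, 3 or 4 (-0.77, -0.76 and -0.84). Col15a1 was at 46.2, 38.7, 32.0 and 34.9 at P0, at 17.2, 27.7, 13.9 and 16.9 at P14 and at 15.3, 14.1, 16.5 and 13.3 at P28. It fell by 1.02 ± 0.18 to P14 (adjusted p = 0.000234), and its change from P14 to P28 was -0.30 ± 0.18 (adjusted p = 0.268). Unlike Col18a1, Col15a1 was highest in P0 replicate 1.

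Among the 11 fibrillar collagens, 2 rose, 3 fell and 6 did not pass the test from P0 to P14, while 4 fell and 0 rose from P14 to P28. Among all genes, 34.4% rose and 34.5% fell in the first step, and 9.22% and 9.09% in the second. The chains of types I and III, the bulk collagens of connective tissue, had a lower mean at each later age. Col3a1 was at 17.6, 51.2, 50 and 46.9 scaled CPM in P0 replicates 1 to 4, at 16.0, 4.64, 12.4 and 22.3 at P14 and at 5.59, 0.942, 1.35 and 2.68 at P28. P0 replicate 1 lay within the P14 range and P14 replicate 2 below the highest P28 library, so neighbouring ages overlapped, while P0 and P28 did not. The log2 change was -1.62 ± 0.51 from P0 to P14 (adjusted p = 0.0125), -2.23 ± 0.51 from P14 to P28 (adjusted p = 0.0103) and -3.85 ± 0.51 from P0 to P28 (14.4-fold lower, adjusted p = 1.47e-05). Col1a2 was at 22.8, 64.7, 64.6 and 56.5 scaled CPM at P0, at 29.3, 9.50, 23.3 and 18.4 at P14 and at 9.05, 3.00, 4.82 and 7.09 at P28. It too had its lowest P0 level in replicate 1 and its lowest P14 level in replicate 2, and it fell by 1.35 ± 0.40 to P14 (adjusted p = 0.0092) and by 1.66 ± 0.40 from P14 to P28 (adjusted p = 0.0135). Col1a1, the other chain of type I, was at 8.55, 21.4, 25.5 and 25.3 at P0, at 15.2, 5.81, 16.4 and 8.41 at P14 and at 6.01, 2.27, 2.53 and 5.36 at P28. Its change to P14 was -0.79 ± 0.41 (adjusted p = 0.102) and passed the test without P0 replicate 1 (-1.15, adjusted p = 0.0158), and it fell by 1.38 ± 0.41 from P14 to P28 (adjusted p = 0.0336). That call was lost without P14 replicate 1, 3 or 4 (-1.22, -1.18 and -1.49) or P28 replicate 2 or 3 (-1.18 and -1.22). Without P14 replicate 2, the changes from P14 to P28 of Col3a1, Col1a2 and Col1a1 were -2.66, -1.97 and -1.65. The leptomeningeal fibroblast marker sum ran alongside, at 229.5 in P0 replicate 1 against 315.8 to 422.0 in the other P0 libraries, and at 33.2 in P14 replicate 2 against 46.8 to 73.2 in the other P14 libraries, and its part in these levels was not tested.

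Col5a1 and Col24a1 went the other way. Col5a1, a chain of type V that seeds fibrils, was at 27.8, 28.7, 25.5 and 23.1 scaled CPM at P0, at 168.6, 176.3, 97.1 and 159.9 at P14 and at 113.3, 115.3, 149.8 and 140.4 at P28. It rose by 2.46 ± 0.17 on the log2 scale to P14 (5.51-fold, adjusted p = 3.12e-08) with no overlap, and its change from P14 to P28 was -0.19 (95% interval -0.55 to 0.18), or -0.38 and past the threshold without P14 replicate 3. Col24a1, a minor fibrillar collagen best known from bone and cornea, was at 3.85, 1.68, 0.865 and 2.32 at P0, at 29.7, 80.8, 19.4 and 45.6 at P14 and at 23.3, 18.5, 21.4 and 20.9 at P28. Every P14 and P28 library was above every P0 library, and P14 replicate 2 was the highest of all 12. Its rise to P14 was 3.98 ± 0.39 (15.8-fold, adjusted p = 9.46e-07), and 3.62 (adjusted p = 2.70e-07) without P14 replicate 2. Its change from P14 to P28 was -0.85 ± 0.39 (adjusted p = 0.146), and -1.17 and past the threshold without P14 replicate 3.

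Col5a2, the chain that joins Col5a1 in the common type V molecule, did not share this rise. It was at 16.3, 39.4, 34.3 and 28.5 scaled CPM at P0, at 25.3, 39.1, 20.4 and 30.2 at P14 and at 14.7, 10.5, 10.3 and 12.1 at P28. Its change to P14 was -0.01 (95% interval -0.56 to 0.53), and it fell by 1.21 ± 0.25 from P14 to P28 (adjusted p = 0.00585), when all P28 libraries were below all P14 libraries. Per kb of exon, the ratio of Col5a1 to Col5a2 was 0.822 to 1.93 in the P0 libraries, 5.09 to 7.52 at P14 and 8.72 to 16.5 at P28. Col5a2 lies 24624 bases from Col3a1 on chromosome 1. Col2a1, the collagen of cartilage, was low (6.93 ± 0.888 scaled CPM at P0) and fell to 2.23 ± 1.23 at P14 (log2 change -1.54 ± 0.26, adjusted p = 0.000119). Col5a3, Col11a1, Col11a2 and Col27a1 passed the test in none of the 3 comparisons, with changes to P14 of 0.65, -0.15, 0.66 and -0.23 whose 95% intervals ran from -0.85 at the lowest to 1.41 at the highest. Each of these 4 had its highest level of P14 in replicate 2, and without that library Col11a1 and Col27a1 fell to P14 by 0.46 and 0.54, and Col11a1 was also called from P0 to P28 (-0.49). Without P0 replicate 1, Col11a2 and Col5a3 rose to P14 by 0.87 and 0.79, and Col5a3 also passed the test without P14 replicate 3 or 4 (0.81 and 0.78). The call of Col5a3 depended on the method too. With all libraries it was called with scaling by the library total (0.72) or by TMM, another joint scaling (0.68). It was also called with edgeR (0.88) and DESeq2 (0.85). With the deposited values not rescaled, both Col5a3 (1.04) and Col11a2 (1.12) were called.

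**Figure D3:**
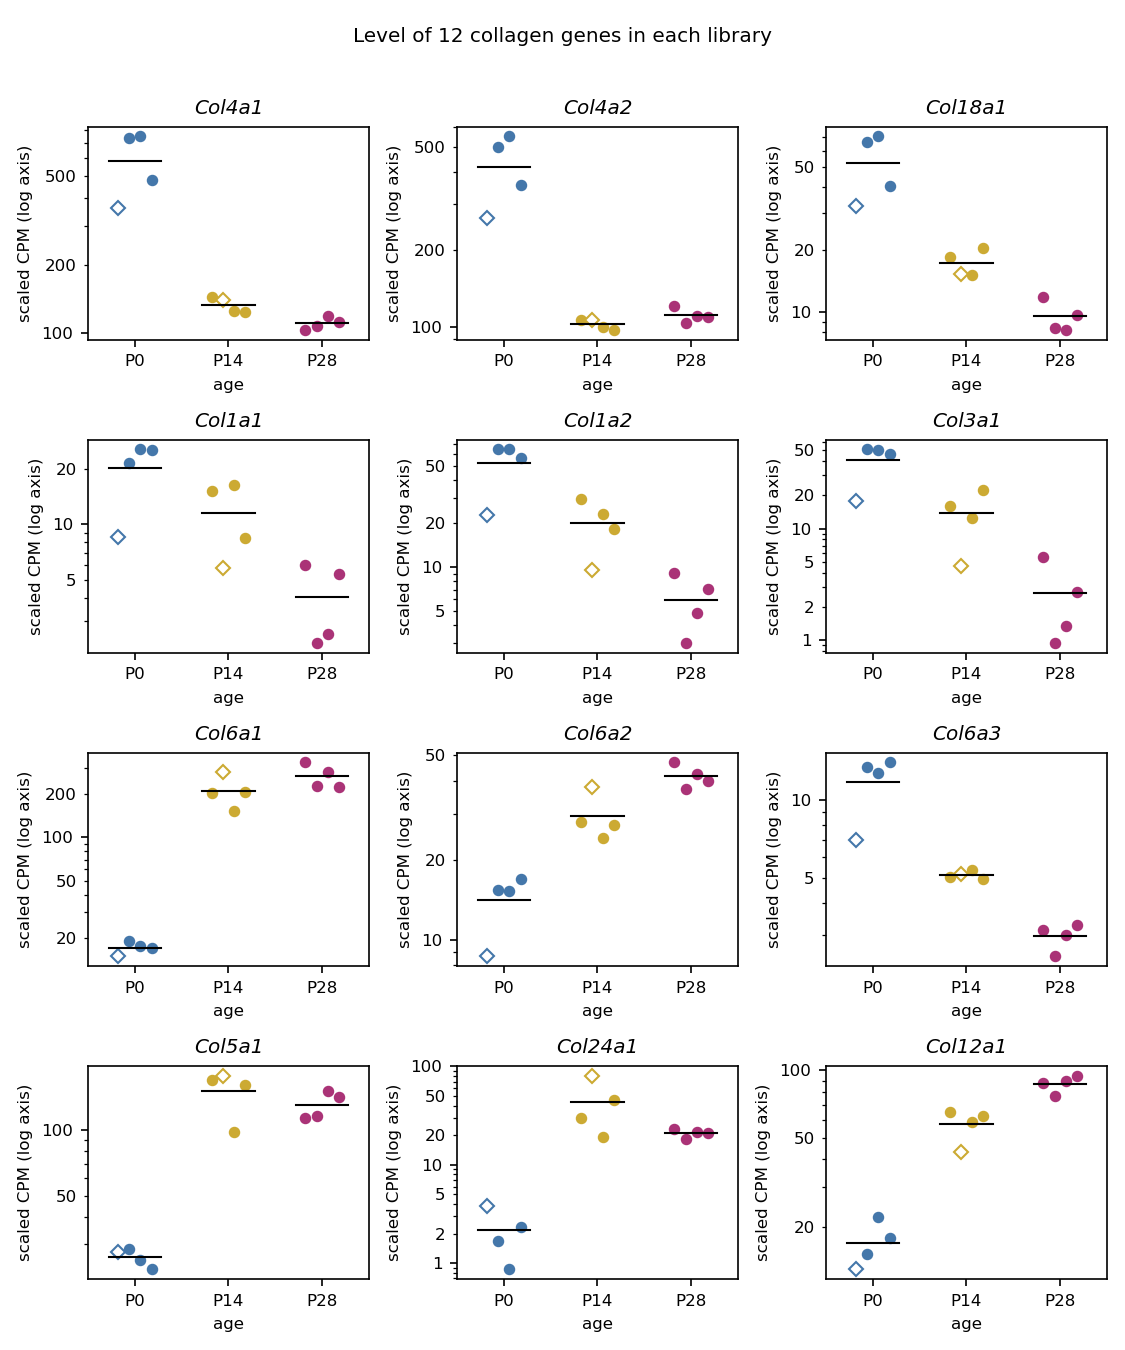
Level of 12 collagens in each library (scaled CPM, log axes) against age, with the mean of 4 libraries as a line and P0 replicate 1 and P14 replicate 2 as open diamonds. Col4a1, Col4a2 and Col18a1 lie highest at P0, Col1a1, Col1a2 and Col3a1 step down over the ages, and Col6a1, Col5a1, Col24a1 and Col12a1 have every P14 and P28 library above every P0 library.

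Type VI collagen, whose chains α1, α2 and α3 assemble in equal parts into the classic filament, had chains that moved apart. Of the 5 tested chains 4 rose and 1 fell from P0 to P14, and 0 rose and 2 fell from P14 to P28. The shares of all genes were 34.4% higher and 34.5% lower in the first step, and 9.22% and 9.09% in the second. Col6a1 was at 14.9, 19.0, 17.5 and 17.1 scaled CPM in P0 replicates 1 to 4, at 202.5, 282.3, 150.8 and 204.7 at P14 and at 330.4, 226.0, 283.0 and 223.4 at P28. The P0 libraries differed little among themselves, and every later library was far above them. Col6a1 rose by 3.55 ± 0.17 on the log2 scale to P14 (11.7-fold, adjusted p = 1.28e-09) and was 3.90 ± 0.17 higher at P28 than at P0 (14.9-fold, adjusted p = 3.37e-10). Its further change up to P28 was 0.35 (95% interval -0.02 to 0.73), and without P14 replicate 2 it was 0.51 and passed the test (adjusted p = 0.0172).

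Col6a2, the α2 chain, was at 8.67, 15.5, 15.3 and 17.0 scaled CPM at P0, at 28, 37.8, 24.3 and 27.3 at P14 and at 47.0, 37.2, 42.6 and 40.1 at P28. It rose by 1.05 ± 0.19 to P14 (2.07-fold, adjusted p = 0.000279), and its change from P14 to P28 was 0.51 ± 0.19 (adjusted p = 0.0798), which passed the test without P0 replicate 1 (0.52) or P14 replicate 2 (0.64). Col6a1 and Col6a2 lie on the same strand of chromosome 10, 85161 bases apart. Col6a3, the α3 chain, was at 6.99, 13.4, 12.7 and 14 at P0, at 5.02, 5.15, 5.38 and 4.96 at P14 and at 3.13, 2.48, 3.00 and 3.29 at P28. Its ages did not overlap in either step, and it fell by 1.08 ± 0.19 to P14 (adjusted p = 0.000239) and by 0.70 ± 0.19 from P14 to P28 (adjusted p = 0.0246), the latter lost without P14 replicate 3, P28 replicate 2 or P28 replicate 3 (-0.68, -0.63 and -0.71). Per kb of exon, Col6a1 was 3.33 to 5.82 times Col6a3 in the P0 libraries, 76.2 to 149.0 times in those of P14 and 185.0 to 288.0 times in those of P28. Against Col6a2, Col6a1 was 1.90 to 3.26 times as high at P0, 11.8 to 14.2 times at P14 and 10.6 to 13.3 times at P28. These ratios describe RNA of nuclei and were not tested.

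Col6a4, Col6a5 and Col6a6 encode chains that can stand in for α3 and lie side by side on 1 strand of chromosome 9, with 27823 and 27854 bases between them. Col6a4 was at 4.03, 1.24, 1.41 and 2.09 scaled CPM at P0, at 4.91, 36.5, 15.7 and 18.7 at P14 and at 7.62, 16.1, 4.52 and 10.2 at P28. The P14 libraries were spread widely, yet all were above all of P0, and the rise was 2.66 ± 0.52 (adjusted p = 0.000445). Col6a5 was at 1.48 ± 0.679 at P0, 4.30 ± 2.68 at P14 and 1.40 ± 0.324 at P28 (mean ± SD, n = 4), and it rose by 1.19 ± 0.32 (adjusted p = 0.00464) and then fell by 1.21 ± 0.32 (adjusted p = 0.0199, lost without P28 replicate 1 at -1.10). Col6a6, which was not tested, was at 0.608 to 2.89 in the P14 libraries and at most at 0.734 at the other ages. Beside the rise of type VI, the sums of astrocyte and oligodendrocyte markers were higher at P14 and P28 than at P0. Of the 7 astrocyte markers, 4 rose and 0 fell from P0 to P14, but 2 rose and 2 fell from P0 to P28. In P14 replicate 2 the astrocyte and oligodendrocyte sums were the lowest of that age (1328.6 against 1707.0 to 2366.2, and 905.9 against 1513.1 to 2139.4), while Col6a1, Col6a2, Col6a4, Col6a5 and Col6a6 had their highest level of that age there. The part of these cell types in the type VI levels was not tested.

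**Figure D4:**
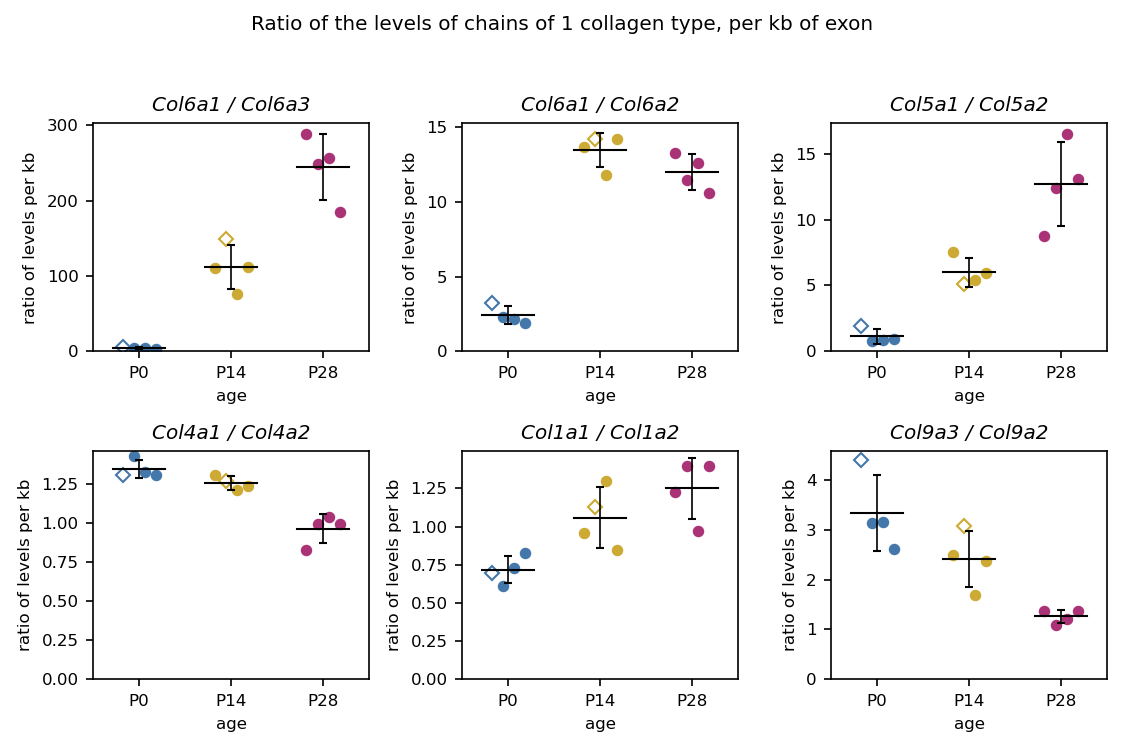
Ratio of the levels per kb of exon of pairs of chains that belong to 1 collagen type, in each library, with mean ± SD of 4 libraries per age and P0 replicate 1 and P14 replicate 2 as open diamonds. The ratio of Col6a1 to Col6a3 is 3.33 to 5.82 at P0 and 185.0 to 288.0 at P28, and that of Col4a1 to Col4a2 is 1.31 to 1.43 at P0 and 0.826 to 1.04 at P28.

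FACIT collagens, which lie on fibrils or link them to other matrix, mostly rose from P0 to P14: of 9 tested, 6 rose, 0 fell and 3 did not pass the test. From P14 to P28, 1 rose and 5 fell. The backgrounds were 34.4% of all genes higher and 34.5% lower in the first step, and 9.22% and 9.09% in the second. Col12a1, which binds type I fibrils in tissues under load, was at 12.9, 15.1, 22.1 and 17.9 scaled CPM at P0, at 65.5, 43.4, 58.7 and 62.6 at P14 and at 88.1, 76.9, 89.7 and 94.9 at P28. It was the collagen that rose in both steps, by 1.74 ± 0.16 (adjusted p = 5.84e-07) and by 0.61 ± 0.16 (adjusted p = 0.0203), and no library of 1 age overlapped with another age. The second step missed the threshold when P28 replicate 1, 3 or 4 was left out (changes of 0.61, 0.60 and 0.57). Col20a1 was at 1.57, 0.875, 0.393 and 0.972 at P0, at 7.26, 10.3, 4.55 and 6.40 at P14 and at 9.90, 9.91, 8.79 and 7.44 at P28. All later libraries were above all P0 libraries, and its rise to P14 was 2.40 ± 0.26 (5.29-fold, adjusted p = 2.59e-06).

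Col9a1, Col14a1 and Col22a1 rose and then fell, as Col6a5 did. Col22a1, known from tissue junctions, was at 7.71, 8.75, 7.07 and 4.41 scaled CPM at P0, at 14.3, 32.4, 13.4 and 14.8 at P14 and at 7.48, 7.81, 9.63 and 7.56 at P28. The P14 libraries were above all others, with replicate 2 highest, and the changes were 1.30 ± 0.26 (adjusted p = 0.000623) and -1.07 ± 0.26 (adjusted p = 0.0146), or 1.01 and -0.77 without P14 replicate 2. Col14a1 was at 1.45, 1.02, 1.34 and 1.05 at P0, at 2.05, 1.95, 1.55 and 2.80 at P14 and at 1.23, 0.523, 0.929 and 0.798 at P28. Its P14 libraries also lay above all others, and it changed by 0.58 ± 0.20 (adjusted p = 0.0181, lost without P14 replicate 4 at 0.46) and by -0.92 ± 0.20 (adjusted p = 0.00699). Col9a1 was at 1.68 ± 0.352, 3.44 ± 0.631 and 1.68 ± 0.555 scaled CPM at the 3 ages and changed by 0.85 ± 0.22 (adjusted p = 0.00386) and -0.88 ± 0.22 (adjusted p = 0.0162).

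The 3 chains of type IX, a cartilage collagen that is also made in the nervous system, did not follow 1 course. Col9a3 was at 47.6, 38.4, 35.5 and 35.6 scaled CPM at P0, at 28.8, 68.5, 20.8 and 25.2 at P14 and at 9.52, 9.87, 10.2 and 10.1 at P28. The P28 libraries lay close together and below all others, and P14 replicate 2 was above every other library. The change to P14 was -0.28 ± 0.27 (adjusted p = 0.368) with this library and -0.65 (adjusted p = 0.000288) without it, and Col9a3 fell by 1.64 ± 0.27 from P14 to P28 (adjusted p = 0.00155). Col9a2 was at 9.62 ± 0.995, 11.4 ± 4.38 and 6.38 ± 0.767 at the 3 ages, and it fell by 0.73 ± 0.20 from P14 to P28 (adjusted p = 0.0235). This call was lost without P28 replicate 1 or 4 (-0.68 and -0.70). Per kb of exon, Col9a3 was 2.62 to 4.41 times Col9a2 at P0 and 1.09 to 1.37 times at P28.

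Col16a1 showed how much the P14 group could rest on 1 library. It was at 13.0, 13.3, 9.04 and 10.6 scaled CPM at P0, at 20.2, 82.1, 16.6 and 24.7 at P14 and at 35.3, 29.8, 33.6 and 31.7 at P28. With all libraries it rose by 1.30 ± 0.37 to P14 (adjusted p = 0.0061) and changed by 0.17 from P14 to P28 (adjusted p = 0.771). Without P14 replicate 2 the first change was 0.81 (adjusted p = 0.000178) and the second 0.67 (adjusted p = 0.00467), so that it rose in both steps. Col19a1, a FACIT-like collagen known for a role in synapse formation, had the opposite pattern in that library: it was at 12.8, 2.83, 12.2 and 8.92 at P14, at 7.54 to 9.65 at P0 and at 11.9 to 17.7 at P28. Its change from P0 to P28 was 0.72 ± 0.35 (adjusted p = 0.0777) and passed the test without P14 replicate 2, with the same value. Col9a1 and Col19a1 are neighbours, 4944 bases apart on opposite strands of chromosome 1, and of the 2 only Col9a1 passed a test with all libraries.

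Of the transmembrane collagens, 3 of 4 tested rose to P14 and none fell, beside 34.4% of all genes higher and 34.5% lower. Among the 3 was Col17a1, which passed the filter only through libraries of P14 and P28, so its rise is not independent of the filter. None of the 4 passed the test from P14 to P28. Col25a1, a neuronal collagen from which a component of amyloid plaques is cut, was at 21.8, 21.5, 18.2 and 20.0 scaled CPM at P0, at 24.7, 32.4, 42.4 and 31.5 at P14 and at 43.0, 34.5, 33.4 and 33.1 at P28. All later libraries were above all P0 libraries, and the rise to P14 was 0.65 ± 0.15 (adjusted p = 0.00152). Col23a1 was at 43.5, 35.6, 34.6 and 39.5 at P0, at 55.2, 79.6, 44.2 and 54.7 at P14 and at 37.8, 39.6, 50.2 and 44.8 at P28. It rose by 0.58 ± 0.16 (adjusted p = 0.00534), and its P28 libraries overlapped both other ages. Without P14 replicate 3 it fell from P14 to P28 by 0.53. Col17a1, an anchor of epithelial cells, was low: 0.361, 0.00, 0.314 and 0.150 at P0, 0.608, 1.66, 0.758 and 1.04 at P14 and 1.56, 1.88, 2.24 and 1.82 at P28. It rose by 1.09 ± 0.23 to P14 (adjusted p = 0.000897), and its change from P14 to P28 was 0.69 ± 0.23 (adjusted p = 0.0547), which passed the test without P0 replicate 2 (0.69) or P14 replicate 2 (0.87). Col13a1, a collagen of the neuromuscular junction, was at 0.928 ± 0.157, 1.24 ± 0.570 and 0.850 ± 0.482 scaled CPM and passed no test.

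The remaining classes are small. Col8a1, a short chain collagen of vessel walls and the eye, was at 1.26, 3.65, 2.51 and 3.29 scaled CPM at P0, at 6.88, 4.38, 5.84 and 12.9 at P14 and at 3.5, 3.31, 3.38 and 4.63 at P28, and it rose by 1.30 ± 0.31 to P14 (adjusted p = 0.00214) with no overlap. From P14 to P28 it fell by 0.83 without P0 replicate 1 and by 1.04 without P14 replicate 2, and with all libraries its change was -0.83 (adjusted p = 0.0785). Its partner chain Col8a2 was at 0.662, 1.97, 2.83 and 2.84 at P0, at 1.90, 0.458, 0.872 and 0.539 at P14 and at 0.947, 0.628, 1.01 and 0.766 at P28. P0 and P14 overlapped, the change was -0.82 ± 0.35 (adjusted p = 0.0483), and the call was lost without P14 replicate 2 (-0.66, adjusted p = 0.0994). It was lost in the same way when any other single library was left out (changes of -0.66 to -0.83), save P0 replicate 1 and P14 replicate 1. Col26a1 was at 17.3, 22.6, 22.6 and 25.6 at P0, at 28.4, 37.7, 26.0 and 31.1 at P14 and at 32.0, 28.9, 29.5 and 29.6 at P28, and it rose by 0.47 ± 0.13 (adjusted p = 0.00653). Col7a1, which anchors skin to its basement membrane, was at 11, 7.66, 7.23 and 7.03 at P0, at 3.95, 12.9, 3.03 and 3.63 at P14 and at 3.41, 2.79, 2.75 and 2.81 at P28. P14 replicate 2 was the highest of all 12 libraries. The change of Col7a1 from P0 to P14 was -0.66 ± 0.33 (adjusted p = 0.093) with that library and -1.09 (adjusted p = 3.92e-05) without it, and it fell by 1.32 ± 0.33 from P0 to P28 (adjusted p = 0.00288). Col28a1, a collagen of peripheral nerve, was at 2.53, 7.29, 4.09 and 3.36 at P0, at 2.13, 3.23, 1.97 and 2.91 at P14 and at 1.85, 2.16, 2.41 and 3.83 at P28, and it passed no test with all libraries. Its change to P14 was -0.58 ± 0.28 (adjusted p = 0.078), and it was called without P0 replicate 1 (-0.78) or P14 replicate 2 (-0.69), as was its change from P0 to P28 without those libraries or P28 replicate 4 (-0.80, -0.60 and -0.78).

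Genes that make, bind or cut collagen, or that encode other basement membrane proteins, mostly fell from P0 to P14. Of 76 such genes in 5 lists, 71 were tested, 47 fell and 11 rose, with a median log2 change of -0.97. Of the 47, 14 were other basement membrane proteins, whose list had a median of -2.05. The medians of the other lists ran from -0.46 to -1.48. The background of that comparison was 34.5% of all genes lower and 34.4% higher. Between P14 and P28, 15 fell and 4 rose, with 9.09% of all genes lower and 9.22% higher. The lists rest on textbook roles. Markers of vessel cells, meningeal cells, progenitors and excitatory neurons also mostly fell. From P0 to P14 the median log2 change was -3.19 for the endothelial and -2.83 for the mural list. It was -2.17 for the leptomeningeal fibroblast, -2.87 for the progenitor and -0.93 for the excitatory neuron list. The medians of the oligodendrocyte precursor, inhibitory neuron, astrocyte, choroid plexus, microglial and oligodendrocyte lists were -0.02, 0.09, 0.67, 1.12, 1.21 and 4.53. The part of these cell types in the partner genes was not tested. Of 20 genes for the modification, folding and secretion of collagen, 11 fell and 5 rose to P14. Serpinh1, a chaperone that binds the collagen helix, went from 101.9 ± 23.2 scaled CPM at P0 to 15.8 ± 4.38 at P14 and 5.63 ± 2.42 at P28, a fall of 2.66 ± 0.26 and then of 1.44 ± 0.26 on the log2 scale (adjusted p = 1.01e-06 and 0.00274). Fkbp10, another collagen chaperone, fell by 1.96 ± 0.16 and then by 1.33 ± 0.16 (adjusted p = 2.00e-07 and 0.000254). P4hb, the shared subunit of prolyl hydroxylase, fell by 1.43 ± 0.12 to P14 (adjusted p = 1.37e-07). In contrast P4ha2, a catalytic subunit of that enzyme, rose by 1.48 ± 0.24 (adjusted p = 9.61e-05), and Mia2, which helps to load large cargo for secretion, rose by 0.88 ± 0.08 (adjusted p = 4.26e-07).

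Of 13 tested genes for propeptide cleavage and crosslinking, 7 fell and 2 rose to P14, beside 34.5% of all genes lower and 34.4% higher. The lysyl oxidases, which crosslink fibrils, were among those that fell: Loxl2 by 2.19 ± 0.22, Loxl1 by 2.12 ± 0.22, Loxl3 by 1.22 ± 0.19 and Lox by 1.34 ± 0.48 on the log2 scale (adjusted p = 1.03e-06, 1.75e-06, 7.98e-05 and 0.0228). Adamts2, which removes the amino-terminal propeptide, fell by 0.83 ± 0.12 (adjusted p = 3.99e-05). Pcolce2, an enhancer of carboxy-terminal cleavage, rose by 2.38 ± 0.36 (adjusted p = 5.11e-05). Of 10 tested receptors, 7 fell and 1 rose. Itgb1, the common integrin β chain, fell by 0.97 ± 0.13, Ddr1, a kinase receptor for collagen, by 0.95 ± 0.10 and Adgrg1, the receptor of Col3a1 in the developing cortex, by 1.60 ± 0.15 (adjusted p = 2.07e-05, 2.37e-06 and 7.14e-07). Adgrg1 went from 135.0 ± 8.42 scaled CPM at P0 to 45.4 ± 12.6 at P14 and 31.6 ± 1.15 at P28. Lair1, an inhibitory receptor of immune cells, rose by 2.30 ± 0.21 (adjusted p = 5.62e-07), and Adgrg6, a receptor for type IV collagen, rose from P14 to P28 by 1.09 ± 0.14 (adjusted p = 0.000412).

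Of 11 tested collagen-cleaving enzymes and their inhibitors, 8 fell and 2 rose to P14, beside 34.5% of all genes lower and 34.4% higher. The gelatinase Mmp9 fell by 3.75 ± 0.25 (adjusted p = 2.53e-08), and the membrane-bound proteases Mmp15 and Mmp14 by 2.49 ± 0.20 and 2.48 ± 0.23 (adjusted p = 1.41e-07 and 5.46e-07). Ctsk, a collagen-cutting cathepsin, rose by 1.56 ± 0.19 and Timp4, an inhibitor, by 1.96 ± 0.25 (adjusted p = 6.90e-06 and 1.03e-05). Among 17 other basement membrane proteins, partners of type IV collagen, 14 fell and 1 rose to P14, with a median log2 change of -2.05, beside the endothelial and mural medians of -3.19 and -2.83. Lama1 fell by 3.09 ± 0.23, Nid2 by 3.07 ± 0.28, Fn1 by 3.08 ± 0.30 and Lamb1 by 1.62 ± 0.14 (adjusted p = 5.15e-08, 5.56e-07, 1.00e-06 and 2.89e-07). From P14 to P28, 5 of these 17 fell and 1 rose, beside 9.09% of all genes lower and 9.22% higher. Lamb1 fell by 0.67 ± 0.14 and Nid2 by 1.36 ± 0.28 (adjusted p = 0.00611 and 0.00606), while the change of Col4a1 and Col4a2 missed the threshold. The gene of this list that rose to P14 was Lamb3, a laminin chain of epithelia, by 1.07 ± 0.17 (adjusted p = 9.46e-05).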

How the data were processed

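Polyadenylated RNA of cortical nuclei was sequenced from 12 libraries (TruSeq stranded mRNA kit, per the labels). The authors deposited 1 table per age of normalized read counts, used here as signal; each table was normalized on its own. The submitters' processing notes name DESeq2 and mm10; for the aligner, counter, counted strand, annotation and filters nothing is given in the sources used. Of the columns, 0 were without a sample. Each column was divided by its total over the 25834 shared genes, and the CPM were scaled by median-of-ratios factors over all 12 libraries (0.936 to 1.04). Genes at 1 scaled CPM or more in at least 4 libraries were kept, and log2(scaled CPM + 0.5) was fitted with limma 3.58.1 in R 4.3.3 (trend, robust, age as factor, all 12 libraries, no block, two-sided). Adjusted p-values follow Benjamini and Hochberg over all tested genes, with a threshold of 0.05. Fold changes of genes near the pseudocount are understated. Changes have the SE of the fit, levels are means ± SD, and the p-values measure the spread between the numbered replicates.

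Every value came out as a whole number of reads to within 0.05 reads, so edgeR 4.0.16 and DESeq2 1.42.0 could be run on recovered reads as alternatives. Exon lengths come from an older annotation (GENCODE on NCBIM37, all 44 collagens matched), and positions and promoters from RefSeq GRCm38.p6. The members, the classes and the lists of partner and marker genes were chosen with earlier results of these data known. The 3 members of each class with the smallest adjusted p against P0 and the 6 with the smallest from P14 to P28 are given in every library; some others are added. Partner genes named are, per list, the 4 past the threshold with the lowest adjusted p to P14, up to 2 from P14 to P28, and the largest change against the list's majority (1 gene that this rule names is not reported here). Labels do not say whether same-numbered replicates share a litter. The code was tested on simulated data.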

Additional observations from a re-analysis of the deposited data

Results flagged for a closer look

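In each age the highest and the lowest of the 4 libraries were compared with the others for every tested collagen. Of 123 such sets, 14 (11.4%) had a library far from the rest, where chance gives about 5% for unrelated sets. These sets share the same 12 libraries, and no share over all genes is given, so the 11.4% is not read as a trait of collagens. P14 replicate 2 was the library far from the rest in 6 sets and was high each time. In scaled CPM, it had Col16a1 at 82.1 (others 16.6 to 24.7), Col9a3 at 68.5 (20.8 to 28.8), Col11a2 at 38.8 (11.4 to 13.6), Col22a1 at 32.4 (13.4 to 14.8), Col9a2 at 17.9 (8.52 to 9.89) and Col7a1 at 12.9 (3.03 to 3.95). In the same library Col19a1 was low, at 2.83 against 8.92 to 12.8, and the endothelial, mural, leptomeningeal fibroblast, astrocyte, oligodendrocyte, microglial and excitatory neuron marker sums were the lowest of P14. The part of what sets this library apart in these levels was not tested.

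P28 replicate 1 stood apart in 4 sets. It had Col25a1 at 43.0 (others 33.1 to 34.5) and Col7a1 at 3.41 (2.75 to 2.81), both high, and Col9a1 at 0.852 (1.95 to 1.99) and Col4a4 at 0.142 (0.523 to 0.591), both low. P0 replicate 1 stood apart in 2, low for Col3a1 at 17.6 (others 46.9 to 51.2) and high for Col7a1 at 11 (7.03 to 7.66). Col22a1 was high in P28 replicate 3 at 9.63 (others 7.48 to 7.81), and Col8a1 in P28 replicate 4 at 4.63 (3.31 to 3.5). Col7a1 had such a library at each of the 3 ages.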

How the results depend on the processing

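Of 26 alternatives per comparison, none reversed a called collagen. From P0 to P14, 24 of 29 calls held in every alternative that could be run, from P0 to P28 25 of 28, and from P14 to P28 only 6 of 16. Leaving out 1 library at a time gave 28 to 33 changed collagens from P0 to P14, 26 to 31 from P0 to P28 and 10 to 21 from P14 to P28, of which 0 to 5 higher and 9 to 16 lower. The count higher from P14 to P28, 1 with all libraries, was 2 with a pseudocount of 2 CPM, with DESeq2, with limma without trend and robust, with only the 8 libraries compared and without both merged libraries, and 0 with the deposited values not rescaled. It was 5 without P14 replicate 2, and also without P0 replicate 1 and P14 replicate 2 together, an alternative chosen after seeing the data, which gave 36, 21 and 30 changed collagens in the 3 comparisons. With the deposited values not rescaled, the median change of all genes shifted to 0.465 from P0 to P14, -0.196 from P14 to P28 and 0.267 from P0 to P28, and from P0 to P14 the calls of Col3a1, Col1a2, Col4a4 and Col8a2 were lost (-1.15, -0.87, -0.44 and -0.48).

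With the replicate number as a block, 28, 11 and 27 collagens changed from P0 to P14, P14 to P28 and P0 to P28. The calls lost under the block were Col8a2 against P0 and Col1a1, Col4a4, Col4a5, Col4a6 and Col18a1 from P14 to P28. Same-numbered libraries of different ages had correlations of their deviations from the age means of -0.513 to 0.357, over 0.1 in 3 of 12 pairs. Those of differently numbered libraries were -0.537 to 0.596, the highest being P0 replicate 1 with P14 replicate 2. Single odd libraries can set such values, so this check cannot decide whether the numbers pair the samples. At 3 reads, the lowest collagens (Col17a1 at P0) are near the limit of counting.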
